A study of Mus musculus with 12 samples.

Results

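Broad BRG1 regions are the stretches of 1000 bp or more in a list of genomic regions that were called bound by BRG1 in mouse cardiac precursors (CPs). They were chosen by width alone, whatever their position in the genome, and 377 of the 3473 distinct regions of the list met this rule. That the list is one of CPs rests on its label, and an open question about its counts is given with the processing of the data. The CPs were wild-type cells of the W4/129S6 strain, at passage 15 to 20, which had been differentiated from embryonic stem (ES) cells through embryoid bodies with VEGF, Activin and BMP4 and then as monolayers with FGFs. Cells were crosslinked with disuccinimidyl glutarate followed by formaldehyde, and chromatin was digested with MNase to fragments of mono- and di-nucleosome size. The chromatin was then sonicated, as the paper states, and BRG1 was precipitated with the antibody ab110641. Behind the list stand 2 BRG1 ChIP libraries and 1 library of input DNA, which shows the background without precipitation, and the other 9 libraries of the series were not analysed here. The deposited list gives a chromosome, a start and an end for each region and no height, so that the depth of each library is unknown and no value below carries an error between replicates. Whether the cells carried the markers of CPs cannot be checked from positions alone. Regions are not replicates of a condition, and the tests and intervals below cover counting error over regions only.

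BRG1 (SMARCA4) is the ATPase of BRG1/BRM-associated factor (BAF) complexes, which use ATP to slide or evict nucleosomes and thereby change the access of other proteins to DNA. Most mammalian promoters lie in CpG islands, stretches rich in G, C and the dinucleotide CpG, which lack DNA methylation in most cells and are depleted of stable nucleosomes when active. In the forming heart BAF complexes act together with cardiac transcription factors of the GATA, T-box and NK families, and loss of BRG1 disturbs the growth and patterning of the heart.

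Sequence from within or beside 4 broad regions at promoters is shown first. CpG content set broad regions at promoters apart from those elsewhere, as it did for narrower regions, and also varied among promoters. Each is 300 bases of the mm9 assembly, read on the strand of the gene, upstream of the transcription start site (TSS) nearest to the middle of the region and free of annotated exons, with each CpG in capitals. The Zfp423 sequence (chr8:90483495-90483794, minus strand) ends at the TSS and holds 20 CpGs. The Brd2 sequence (chr17:34259263-34259562, minus strand) ends 570 bases before that TSS, since exons of other transcripts lie between, and holds 30. The Arid1a sequence (chr4:133309527-133309826, minus strand) ends at the TSS and holds 37. Sh3bgr (chr16:96421777-96422076, plus strand) is shown as a CpG-poor promoter within a broad region of 1120 bp and holds 7. In the 300 bp upstream of the nearest TSS, the median was 34 CpGs over the 307 broad regions with their centre at a promoter (quartiles 24 and 42) and 28 over 2233 narrower ones (19 and 37).
Zfp423: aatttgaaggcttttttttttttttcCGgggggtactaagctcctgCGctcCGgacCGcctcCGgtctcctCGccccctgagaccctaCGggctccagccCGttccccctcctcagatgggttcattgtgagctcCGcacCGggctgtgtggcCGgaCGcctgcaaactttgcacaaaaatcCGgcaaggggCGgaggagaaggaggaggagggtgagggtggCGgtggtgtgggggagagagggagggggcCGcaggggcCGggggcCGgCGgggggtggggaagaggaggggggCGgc
Brd2: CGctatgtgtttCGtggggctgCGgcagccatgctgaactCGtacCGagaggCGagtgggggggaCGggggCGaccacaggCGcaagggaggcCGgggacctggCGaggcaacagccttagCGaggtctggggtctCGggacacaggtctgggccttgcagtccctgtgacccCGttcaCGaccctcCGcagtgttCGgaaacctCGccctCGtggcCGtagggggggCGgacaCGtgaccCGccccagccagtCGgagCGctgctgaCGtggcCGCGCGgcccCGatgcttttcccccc
Arid1a: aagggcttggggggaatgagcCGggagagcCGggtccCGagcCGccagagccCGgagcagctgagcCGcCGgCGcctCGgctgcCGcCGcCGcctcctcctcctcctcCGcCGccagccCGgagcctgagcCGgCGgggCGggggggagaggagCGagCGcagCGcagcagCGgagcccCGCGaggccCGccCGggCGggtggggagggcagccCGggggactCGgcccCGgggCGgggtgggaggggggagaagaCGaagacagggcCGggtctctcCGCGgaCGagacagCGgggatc
Sh3bgr: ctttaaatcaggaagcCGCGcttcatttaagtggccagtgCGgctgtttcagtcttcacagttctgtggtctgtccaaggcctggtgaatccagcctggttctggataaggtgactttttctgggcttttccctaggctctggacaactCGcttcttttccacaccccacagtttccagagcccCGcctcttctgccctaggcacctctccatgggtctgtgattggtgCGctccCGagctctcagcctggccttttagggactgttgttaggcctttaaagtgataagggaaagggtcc

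From broad regions away from promoters, 2 stretches of 200 bases on the plus strand of mm9 are shown. They are centred on the word AGATAA, a form of the sequence that GATA factors recognise, nearest to the middle of the region, and the word is in capitals on either strand (TTATCT on the other). The first lies between genes, with Rnd2 as the nearest protein-coding gene (chr11:101342362-101342561), and holds 3 CpGs and 2 words. Upstream of T, which encodes the mesoderm factor Brachyury, the sequence (chr17:8622028-8622227) has 6 CpGs and 2 words. T was picked after its values had been seen. AGATAA occurred on either strand in the central 200 bp of 222 of all 3473 regions (6.39%), and a match is a description of the sequence and not of a bound site.
near Rnd2: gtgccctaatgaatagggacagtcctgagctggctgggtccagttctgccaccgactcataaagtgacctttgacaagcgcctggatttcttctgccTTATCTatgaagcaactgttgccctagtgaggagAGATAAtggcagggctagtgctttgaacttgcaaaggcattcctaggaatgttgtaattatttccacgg
near T: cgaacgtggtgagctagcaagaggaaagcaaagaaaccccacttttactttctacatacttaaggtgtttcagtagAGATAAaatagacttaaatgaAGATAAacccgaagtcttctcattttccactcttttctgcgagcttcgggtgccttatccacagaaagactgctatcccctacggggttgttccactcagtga

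The middle of the widest region, on chromosome 17 (chr17:39982246-39982445, plus strand, 200 bases), is shown because this region lay outside annotated genes and yet was CpG rich. CpGs are in capitals, and there are 26.
widest region: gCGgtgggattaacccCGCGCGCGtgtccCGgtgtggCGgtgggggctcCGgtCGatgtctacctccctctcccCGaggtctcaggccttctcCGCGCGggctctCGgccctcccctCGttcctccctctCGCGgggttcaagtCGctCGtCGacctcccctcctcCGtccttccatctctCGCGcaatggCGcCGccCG

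Widths are given as a description, since they chose the regions. The 377 broad regions were 10.9% of the distinct regions and covered 528940 bp, or 31.4% of all bases in the list. Their median width was 1260 bp, with quartiles at 1120 and 1540 bp and a maximum of 4520 bp, against a median of 320 bp (quartiles 160 and 540 bp) for the 3096 narrower regions. By width, 151 (40.1%) were under 1200 bp, 123 from 1200 to under 1500 bp, 65 from 1500 to under 2000 bp, 34 from 2000 to under 3000 bp and 4 above. Widths ran on across the threshold, but counts fell more there than beside it, from 151 and 136 regions in the bins of 100 bp from 800 and 900 bp to 81 and 70 in those from 1000 and 1100 bp. Why they did was not tested. Just inside it, 17 regions were exactly 1000 bp wide, 16 of them at promoters, among them those of the Kruppel-like factor gene Klf5, the hypoxia factor gene Hif1a, the insulin receptor substrate gene Irs2 and the long non-coding RNA gene Malat1. Just outside it, 25 regions were 980 bp wide, 21 of them at promoters, and these included Klf4, the RNase gene Dicer1, the repressor gene Rest and Rybp, whose product belongs to Polycomb complexes.

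**Figure D1:**
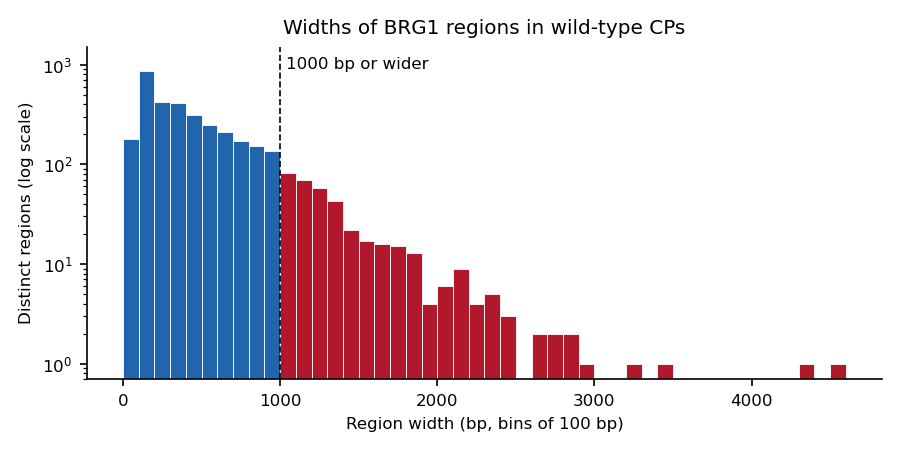
Number of distinct BRG1 regions (vertical axis, log scale) in bins of 100 bp of width (horizontal axis, bp), with broad regions in red and narrower ones in blue. The counts fall from 136 in the bin below 1000 bp to 81 in the bin above, and 4 regions are wider than 3000 bp.

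Among the 25 widest regions, 22 overlapped 1 kb either side of an annotated TSS, and their genes are given below in an order made by hand from what their products do, which is not a result of these data. Brd2 (ENSMUSG00000024335), which encodes a BET protein that reads acetylated histones, had a region of 3440 bp (chr17:34256326-34259765). The BAF subunit genes Arid1a (ENSMUSG00000007880) and Arid1b (ENSMUSG00000069729), whose products replace each other in the complex, had regions of 2720 bp (chr4:133307826-133310545) and 2460 bp (chr17:4994086-4996545). Chd7 (ENSMUSG00000041235), a remodeller gene mutated in a syndrome with heart defects, had one of 2240 bp. Zfp423 (ENSMUSG00000045333), a zinc finger gene, had the widest region at a promoter (4320 bp, chr8:90481926-90486245), the Wnt effector gene Tcf7l2 had 2420 bp, the forkhead gene Foxo3 2400 bp, the homeobox gene Zeb2 2360 bp and the corepressor gene Ctbp2 2320 bp. Irf2bp2, which encodes a partner of an interferon regulatory factor, had 2280 bp, and Cxxc5, which encodes a CpG-binding zinc finger protein, had 2180 bp.

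Smad7, which encodes an inhibitor of TGF-beta and BMP signalling, had 2660 bp, and Ppp3ca, which encodes the catalytic subunit of calcineurin, had 2700 bp. Prkg1, the gene of a cGMP-dependent kinase, had 2800 bp, the adhesion receptor gene Lphn2 had 2820 bp and the ephrin gene Efnb3 had 2240 bp. The other genes were Igf2bp1 (2980 bp), which encodes an RNA-binding protein of embryonic tissues, the kinesin gene Kif26b (2620 bp), the ubiquitin ligase gene Fbxo11 (2380 bp), the prothymosin gene Ptma (2180 bp), and Ubtf (2360 bp), whose product acts in transcription of ribosomal RNA genes. The region of 2260 bp at 0610009L18Rik also overlapped Actg1, a cytoplasmic actin gene. The regions at Zfp423 and Brd2 were off centre in opposite directions. At Zfp423 it reached 2751 bp upstream and 1568 bp downstream of the nearest TSS, and at Brd2 1073 bp upstream and 2366 bp downstream.

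The widest region (chr17:39980086-39984605) overlapped no annotated gene. Its end lay 442 bp from AY036118, which the annotation lists as a pseudogene on the minus strand, and the nearest protein-coding TSS, of Pgk2, was 363 kb from its midpoint. Its GC content was 65.2%, its ratio of observed to expected CpG was 0.96, and it lay in a CpG-rich stretch of 6050 bp. In the RefSeq table for GRCm38.p6, AY036118 is next to Rn18s-rs5, a pseudogene related to 18S ribosomal RNA. Ribosomal RNA genes are present in many near-identical copies of which few are placed in the assembly. Of the words of 75 bp in this region, 7.13% occurred elsewhere in mm9, and the part of copies missing from the assembly was not tested.

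By class, where any overlap with 1 kb either side of a TSS made a region a promoter region, 318 of the 377 broad regions (84.4%, 95% Wilson interval 80.3% to 87.7%) lay at promoters. Another 35 (9.28%, 6.75% to 12.6%) lay between genes, 20 (5.31%, 3.46% to 8.05%) in introns and 4 (1.06%, 0.413% to 2.70%) in exons away from promoters. For the narrower regions the shares were 72.6% at promoters, 14.4% between genes, 11.3% in introns and 1.68% in exons. A wider region overlaps more, so the test used the midpoint alone. The midpoint lay within 1 kb of a TSS in 307 of 377 broad regions (81.4%, 77.2% to 85.0%) and in 2233 of 3096 narrower ones (72.1%, 70.5% to 73.7%; odds ratio 1.69, adjusted p = 2.78e-04 by a two-sided Fisher's exact test, over 7 tests). The difference did not extend to regions nearer in width. Of 914 narrower regions of 500 bp or more, 82.9% had their midpoint at a promoter, and against these the difference was -1.50 percentage points. With broad regions taken from 1500 bp, the difference was 8.68 points and did not pass the test (exact test, adjusted p = 0.0958). Within 500 bp of a TSS in place of 1 kb, broad regions had the smaller share, with a difference of -2.62 points from the 67.6% of narrower ones.

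**Figure D2:**
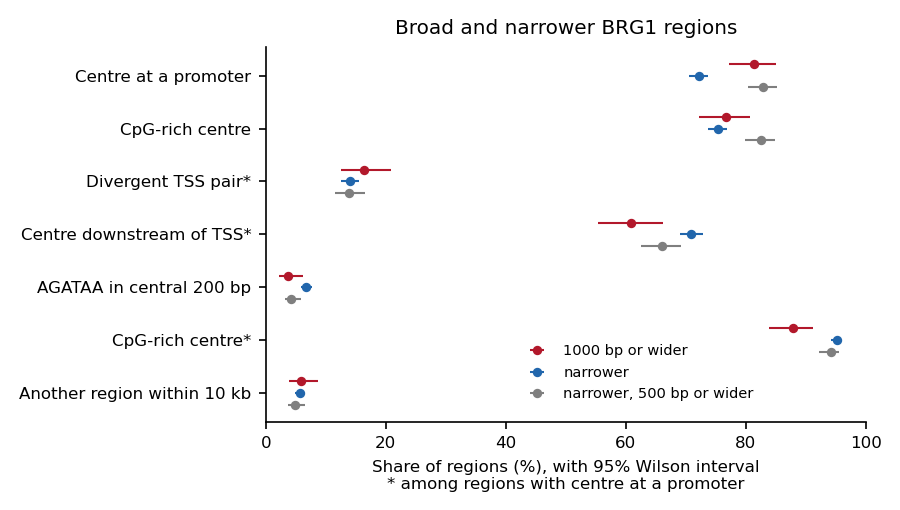
Share of regions (horizontal axis, %) with each of 7 features, for regions of 1000 bp or more (red), all narrower regions (blue) and narrower regions of 500 bp or more (grey), with 95% Wilson intervals as bars. For centre at a promoter, the red point at 81.4% is close to the grey point at 82.9% and apart from the blue one at 72.1%, while for CpG-rich centres among promoter regions the red point at 87.9% is below both others.

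Around promoters, broad regions reached to both sides of the TSS, which the width rule sets in large part. A region of 1000 bp or more with its midpoint less than 500 bp from a TSS must contain it. The midpoint was within 500 bp of a TSS in 65.0% of the 377. Of the 307 with their centre within 1 kb of a TSS, 279 (90.9%) contained the nearest TSS, as did 51.9% of the 2233 narrower ones, a share to which width contributes. These 279 regions extended a median of 606 bp upstream (quartiles 377 and 819 bp) and 721 bp downstream (549 and 1060 bp) of the TSS. Of them, 111 (39.8%) extended 500 bp or more to each side, which only a region wider than 1000 bp can do. The longer part was downstream in 167 of them (59.9%), close to the 60.5% of the narrower regions that contained a TSS. For regions that contain the TSS, the side of the midpoint is the same measure as the longer part. Over all regions, the midpoint was downstream of the nearest TSS in 187 of 307 broad regions (60.9%, 55.4% to 66.2%). It was so in 1584 of 2233 narrower ones (70.9%, 69.0% to 72.8%), with an odds ratio of 0.638 (two-sided exact test of Fisher, adjusted p = 0.00102). Thus both groups were centred downstream more often than upstream. Among regions that contained the TSS the shares were close (59.9% and 60.5%), and regions without it were not compared. The groups also differed in how many contained it, 90.9% of broad and 51.9% of narrower regions. Width contributes to these shares and chose the broad regions. The test therefore cannot separate position from width, and nothing about position is read from it. Against narrower regions of 500 bp or more the difference was -5.05 points and its adjusted p was 0.211, and with broad regions taken from 1500 bp it was -9.32 points with an adjusted p of 0.124 (exact tests). Midpoints of broad regions were also spread more widely, from 107 bp upstream to 340 bp downstream of the TSS between quartiles, with a median at 94 bp downstream, where the narrower regions had quartiles 13 bp upstream and 238 bp downstream and a median of 95 bp.

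**Figure D3:**
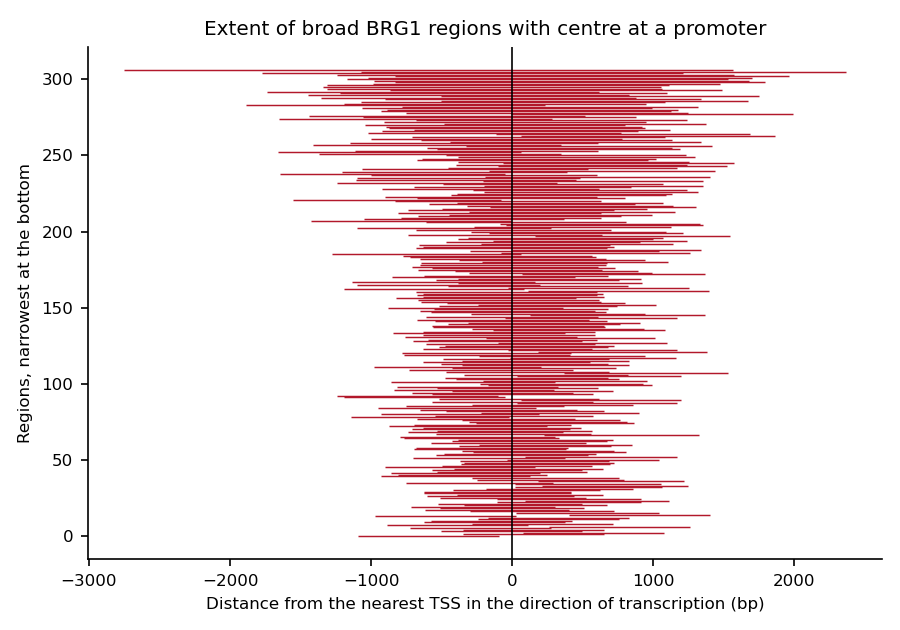
Each of the 307 broad regions with its centre at a promoter is a red line from its upstream to its downstream end, in bp from the nearest TSS in the direction of transcription (horizontal axis), stacked from the narrowest at the bottom to the widest at the top. Lines lie on both sides of the TSS at 0, and the topmost, at Zfp423, reaches 2751 bp upstream.

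A pair of TSSs of different genes on opposite strands lay within 1 kb of the midpoint in 50 of the 307 broad regions (16.3%, 12.6% to 20.8%) and in 312 of 2233 narrower ones (14.0%, 12.6% to 15.5%). The difference did not pass the test (odds ratio 1.20, two-sided exact test of Fisher, adjusted p = 0.414). Both genes of the pair were protein coding in 21 of the 50 broad regions, and in the other 29 a partner was a non-coding gene or pseudogene. The widest with a protein-coding pair were those of 0610009L18Rik and Actg1 (2260 bp), of the zinc finger genes Zbtb1 and Zbtb25 (2060 bp), and of Slc16a6 and Arsg (1820 bp). Of the 307, 193 (62.9%) had 2 or more TSS positions within 1 kb of the midpoint, close to 64.5% of the narrower regions.

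In composition, the centres of broad regions as a whole did not differ from those of all narrower regions by the test. The central 500 bp was CpG rich, here GC of 50% or more and observed/expected CpG of 0.6 or more, in 289 of 377 broad regions (76.7%, 72.1% to 80.6%) and 2331 of 3096 narrower ones (75.3%, 73.7% to 76.8%; odds ratio 1.08, two-sided exact test of Fisher, adjusted p = 0.714). Against the narrower regions of 500 bp or more, of which 82.5% had a CpG-rich centre, the share of broad regions was lower (difference -5.84 points, exact test, adjusted p = 0.0343). With broad regions taken from 1500 bp, their share was higher by 8.30 points, which did not pass (exact test, adjusted p = 0.0872). With each row counted, so that repeats enter as separate regions, it was higher by 4.82 points. Repeats of 1 region are not separate units, so no test is read from this difference. Among regions with their centre at a promoter, however, the share was lower in broad regions, 270 of 307 (87.9%, 83.8% to 91.1%) against 2123 of 2233 (95.1%, 94.1% to 95.9%; odds ratio 0.378, two-sided exact test of Fisher, adjusted p = 3.98e-05), and it was also lower than in narrower regions of 500 bp or more (94.1%, exact test, adjusted p = 0.00314). The deficit was absent in the widest regions, since from 1500 bp the shares were 94.0% and 94.2% (exact test, adjusted p = 0.814). At the TSS the shares were close. In 500 bp centred on the nearest TSS, a window chosen after the data had been seen, 94.1% of the broad and 94.0% of the narrower regions were CpG rich.

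The profile around the midpoint showed a plateau in broad promoter regions and a peak in narrower ones, a contrast to which width contributes. Sequence up to 500 bp from the midpoint lies inside every broad region, while narrower promoter regions had a median width of 360 bp. No profile was made for narrower regions of 500 bp or more. Over the 318 broad regions at promoters, GC content was 68.7% next to the midpoint and still 66.1% at 550 bp downstream on the plus strand, and CpG density was 105 and 90.0 per kb at these distances. Over the 2248 narrower regions at promoters, GC content went from 72.7% to 53.5% and CpG density from 119 to 43.5 per kb. At 2050 bp the GC contents were 44.1% and 44.6%. The CpG-rich stretch in the region that held or lay nearest to the midpoint had a median length of 1685 bp in broad promoter regions (quartiles 1332 and 2067 bp), 1360 bp in narrower promoter regions of 500 bp or more (1100 and 1660 bp) and 1150 bp in all narrower promoter regions (900 and 1462 bp). Of the 318 broad regions, 228 (71.7%) were no wider than this stretch, against 94.6% of narrower promoter regions of 500 bp or more and 97.0% of all narrower ones, shares to which width contributes. Width and stretch length had a Spearman correlation of 0.33 over the 318 broad regions and of 0.43 over all 2566 promoter regions, given as a description, since neighbouring bases and base composition enter both.

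**Figure D4:**
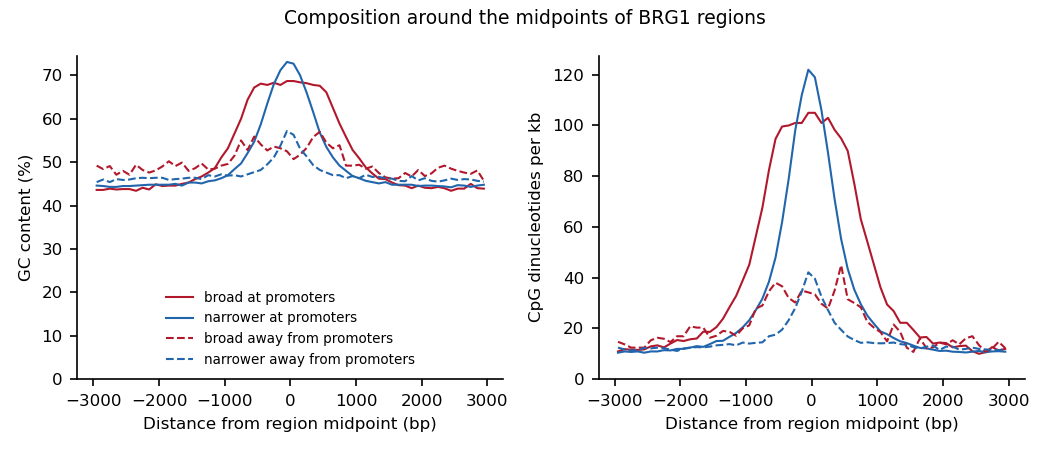
GC content (left, %) and CpG dinucleotides per kb (right) in bins of 100 bp by distance from the region midpoint (bp), for broad (red) and narrower (blue) regions at promoters (solid lines) and away from promoters (dashed lines). Broad promoter regions form a plateau near 68.7% GC, while narrower ones peak at 73.1% and decline within 550 bp to 53.5%.

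A small group of broad promoter regions was poor in CpG. Over the whole region, observed/expected CpG was 0.6 or more in 296 of 318 (93.1%), between 0.4 and 0.6 in 12 and under 0.4 in 10 (3.14%), where 2136 of 2248 narrower promoter regions had 0.6 or more and 38 (1.69%) were under 0.4 (95.2% and 1.18% of those of 500 bp or more), differences that were not tested. Those under 0.4 included Nebl, which encodes a sarcomere protein of the heart (1220 bp, 0.17), Sh3bgr (1120 bp, 0.33), the cytokine receptor gene Cntfr (1140 bp, 0.25), Lsp1 (1060 bp, 0.12), Rab3il1 (1060 bp, 0.25) and 2 regions at Sfi1 (1680 bp, 0.22, and 1420 bp, 0.17). These genes were named after their values had been seen. Of the 25 widest regions, Efnb3 (0.45) and Prkg1 (0.55) were the promoter regions with the lowest ratios, and Chd7 had the highest (1.09, at a GC content of 77.5%).

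Away from promoters there were 59 broad regions, with a median width of 1200 bp. Their median GC content was 51.4% and their median observed/expected CpG was 0.32, against 69.6% and 0.85 in the 318 at promoters. The ratio was 0.6 or more in 14 of the 59 broad regions and under 0.4 in 36 (61.0%), close to the 61.3% of the 848 narrower regions away from promoters. Of the 10 widest, the one next in width to the region on chromosome 17 lay 11987 bp downstream of the TSS of Rnd2 (chr11:101339846-101343105, 3260 bp, GC 49.3%, ratio 0.29). The next were one near the thioesterase gene Acot11 (2380 bp, 34.2 kb from its TSS, ratio 0.62), one with the Mediator gene Med13l as the nearest protein-coding gene (2160 bp, 0.25), and one in an intron of the translation factor gene Eif4e3 (2160 bp, 0.90). The others were near Zc3h12a (1820 bp, 174 kb upstream, 0.37), near Prtg (1760 bp, 27.2 kb upstream, 0.23), near Ccdc65 (1660 bp, 15.0 kb upstream, 0.11), and in introns of Auts2 (1620 bp, 87.3 kb downstream of its TSS, 0.25) and Cbx7 (1560 bp, 0.26). Thus 7 of the 10 widest regions away from promoters had ratios under 0.4.

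The regions named next were picked by hand from the 59, after their values had been seen, for the known roles of their nearest protein-coding genes. No list was fixed and no share was counted here or among narrower regions, so that nothing is read from them about the 59. A region of 1060 bp lay 5.09 kb upstream of T (chr17:8621666-8622725). Tbx3, a T-box gene of the conduction system and limb, had 2, of 1060 bp at 94.9 kb and of 1020 bp at 54.1 kb upstream of its TSS. Meis2, a homeobox gene, had a region of 1380 bp at 12.6 kb from its TSS. The receptor gene Notch2 had an intronic region of 1100 bp and the inhibitory Smad gene Smad6 one of 1080 bp. For Tead1, a factor of muscle gene promoters, a region of 1000 bp lay 19.2 kb upstream of the TSS.

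By the main test the word AGATAA was less frequent at the centre of broad regions, but this depended on the settings. It occurred in the central 200 bp of 14 of 377 broad regions (3.71%, 2.22% to 6.14%) and of 208 of 3096 narrower ones (6.72%, 5.89% to 7.65%; odds ratio 0.535, two-sided exact test of Fisher, adjusted p = 0.0438). Among regions with their centre away from promoters, 7.14% of 70 broad and 19.4% of 863 narrower regions held it (exact test, adjusted p = 0.0169 with this subset in place of all regions). Against the 156 of these narrower regions that were 500 bp wide or more, of which 12.2% held it, a comparison added after the data had been seen, the test was not passed (exact test, adjusted p = 0.492). With the centre at a promoter, a subset chosen after the data had been seen, the shares were 2.93% and 1.84%. Against narrower regions of 500 bp or more the difference over all regions was -0.553 points, with an adjusted p of 0.814. The test was also not passed with broad regions taken from 800 bp (exact tests, adjusted p = 0.135) or from 1500 bp (0.575), or with the word TGATAAG (0.146). When whole regions were searched, the share was higher in broad regions by 12.7 points. A longer region holds more words and width chose the regions, so no test is read from this difference. Over whole regions away from promoters, broad ones held 47 words in 80260 bp, or 0.586 per kb, narrower ones 1.03 per kb and those of 500 bp or more 0.798 per kb. By distance, the density in broad regions was 0.508 per kb within 100 bp of the midpoint, 0.593 from 100 to 500 bp and 0.466 at 5000 to 6000 bp. In narrower regions it was 1.10, 0.685 and 0.612 per kb at the same distances, and in those of 500 bp or more 0.738, 0.772 and 0.591. The highest density was thus at the midpoint in narrower regions as a whole, but neither in broad regions nor in the narrower ones nearest to them in width. The broad values rest on 6, 28 and 55 words and their differences were not tested.

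Another region lay within 10 kb, between midpoints, of 22 broad regions (5.84%, 3.88% to 8.68%) and of 174 narrower ones (5.62%, 4.86% to 6.49%), a difference that did not pass the test (odds ratio 1.04, two-sided exact test of Fisher, adjusted p = 0.814). With each region given to 1 gene only, 12 genes had 2 broad regions. The Hedgehog receptor gene Ptch1 had regions of 1320 and 1200 bp at its promoters, with midpoints 7.94 kb apart, and the ETS factor gene Elf2 had 1820 and 1020 bp. Cxxc5 had regions of 2180 and 1200 bp, 5.93 kb apart, and Smad6 and Auts2 each had 1 at the promoter and 1 in an intron of the same gene.

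Genes were assigned by any overlap of a region with 1 kb either side of their TSSs. Among the 22380 genes that code for protein, 335 had a broad region (1.50%), and 2667 had a region of any width (11.9%), so that the widest region was broad for 12.6% of the genes with a region. Because width chose the regions, these shares are the background for the counts below and were not tested. Genes with a broad region were long, with a median of 68.9 kb (quartiles 26.3 and 122 kb), against 42.0 kb (18.1 and 90.6 kb) for the 2332 genes with narrower regions only and 15.4 kb for all protein-coding genes. Of the 335, 110 (32.8%) were 100 kb or longer, and 22.6% of the genes with narrower regions only were. Some broad promoter regions had no protein-coding TSS within 1 kb, among them that of the microRNA gene Mirlet7i (1100 bp) and that of Malat1.

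Over 29 lists of genes, 56 of the 335 genes (16.7%) were on at least 1 list. The share with a broad region was above 1.50% in 21 lists and no gene had one in 6. The lists overlap, most are small, and nothing is called particular to a list from these counts.

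In the Hedgehog list, 3 of 15 genes (20.0%) had a broad region, the coreceptor gene Gas1 (1620 bp), the effector gene Gli3 (1440 bp) and the receptor gene Ptch1 (1320 bp), and 4 more had narrower regions only. Of 18 retinoic acid genes, 3 (16.7%) had one, for degradation (Cyp26b1, 1800 bp), binding (Crabp1, 1420 bp) and synthesis (Rdh10, 1220 bp). In the list of BMP, TGF-beta and Nodal genes 6 of 62 (9.68%) had one, and these were the inhibitory Smad genes Smad7 (2660 bp) and Smad6 (1120 bp), the receptor genes Bmpr2 (1940 bp), Bmpr1a (1320 bp) and Acvr2a (1140 bp) and the ligand gene Tgfb1 (1180 bp). Another 16 genes of that list had narrower regions only. Of 61 Wnt genes, 6 (9.84%) had one, the effector gene Tcf7l2 (2420 bp), the ligand genes Wnt5a (1840 bp) and Wnt2b (1240 bp), the receptor genes Fzd3 (1540 bp) and Fzd7 (1320 bp) and the secreted antagonist gene Sfrp5 (1060 bp). In the Notch list the coactivator gene Maml3 (1800 bp) was the only 1 of 25. In the FGF list Fgfr2 was the only 1 of 39, with a region of 1160 bp, and a TSS annotated to it also lay within 1 kb of the region at Ctbp2.

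Genes of chromatin regulators also had broad regions. Of 28 BAF subunit genes, 3 (10.7%) had one, Arid1a, Arid1b and Arid2 (1320 bp), which encode the ARID subunits that distinguish the forms of the complex, and 7 more had narrower regions only, among them Smarca2, which encodes the alternative ATPase BRM, and Smarcd3, which encodes BAF60c. Of 26 remodeller and BET genes, 4 (15.4%) had one, Brd2, Chd7, Ep400 (1280 bp) and Chd3 (1200 bp). Of 34 Polycomb and trithorax genes, only Rnf2, which encodes a ubiquitin ligase of Polycomb complexes, had one (1180 bp, 2.94%), while 11 had narrower regions only (32.4%).

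Among transcription factor lists, the counts were small. Of 22 cardiac transcription factor genes, Tead1 (1300 bp) was the only 1 with a broad region at a promoter (4.55%), and Srf, Isl1 and Mef2d had narrower ones. Forkhead genes had 3 of 43 (6.98%), Foxo3 (2400 bp), Foxc1 (2000 bp) and Foxo1 (1280 bp). Of 97 other homeobox genes, 4 (4.12%) had one, Zeb2 (2360 bp), Meis1 (2120 bp), Tshz3 (1760 bp) and Cux1 (1700 bp), and of 54 genes picked by symbols that are common among basic helix-loop-helix genes, not all of which belong to that family, 3 (5.56%) had one, Tcf21 (1220 bp), a regulator of the epicardium, and Bhlhe22 and Tcf12 (both 1060 bp). Sox11 (1460 bp) was the only 1 of 18 Sox genes, and Klf5 (1000 bp) the only 1 of 16 pluripotency genes. For genes named Zfp the share was 5 of 367 (1.36%), with Zfp423 far wider than Zfp143 and Zfp161 (both 1140 bp), Zfp281 (1080 bp) and Zfp532 (1000 bp).

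No gene of the T-box, GATA and FOG, Hox, skeletal muscle fate, endothelial and blood fate, and replication-dependent histone lists had a broad region at a promoter. Of 17 T-box genes 3 had narrower ones, Tbx18, Tbx21 and Tbx3, while none of 39 Hox genes, 8 GATA and FOG genes and 67 histone genes had a region of any width there. A locus with no listed region may be unbound or below the threshold of the authors.

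In the sarcomere list, 2 of 31 (6.45%) had a broad region, Pdlim5 (1300 bp) and Nebl (1220 bp), which both encode proteins of the Z-disc. Of 29 genes of cardiac channels and calcium handling, Kcnh2, which encodes a potassium channel of repolarisation, was the only 1 (1560 bp, 3.45%). Cell cycle genes had 2 of 34 (5.88%), E2f3 (1300 bp) and the inhibitor gene Cdkn1b (1180 bp), and immediate early genes had Jund (1720 bp) as 1 of 26. Splicing factor genes had 3 of 87 (3.45%), Hnrnpk (1360 bp), Srsf6 (1240 bp) and Srsf2 (1200 bp). Of 82 ribosomal protein genes, Rpl7 was the only 1 (1.22%), through the region that spans the TSS of its neighbour Rdh10. In the list of limb and skeletal development genes, Cyp26b1, Gli3 and Rdh10, already counted above, were the 3 of 30.

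**Figure D5:**
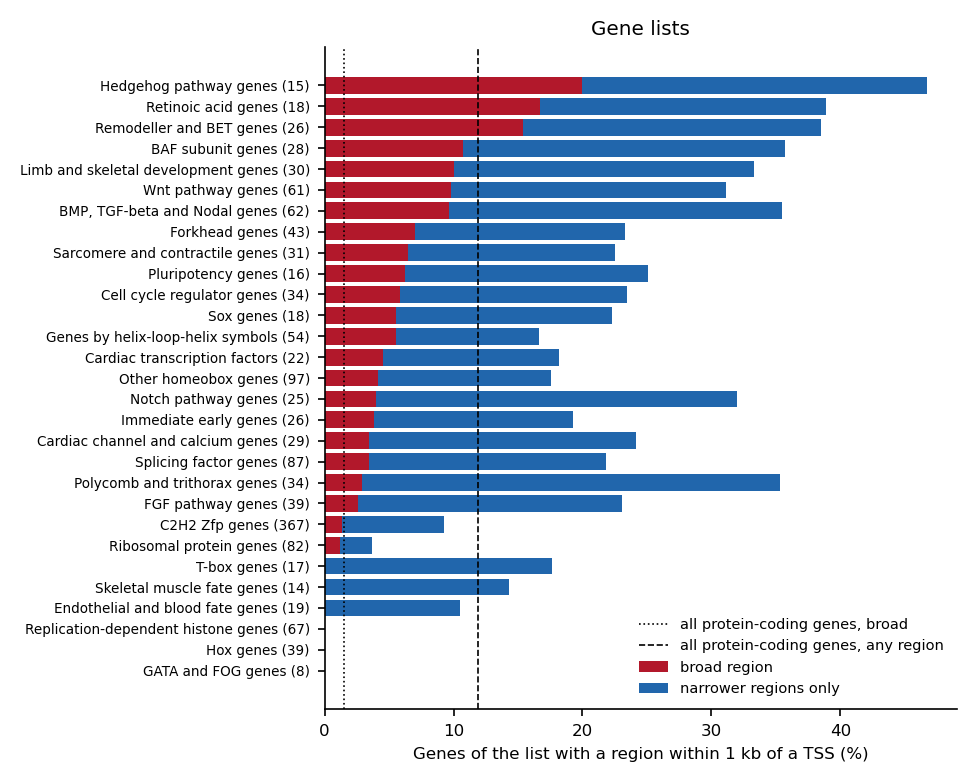
Share of the genes on each of 29 lists (number of genes in brackets) with a region within 1 kb of a TSS (horizontal axis, %), split into genes with a broad region (red) and with narrower regions only (blue). Vertical lines give all protein-coding genes, at 1.50% for a broad region (dotted) and 11.9% for any region (dashed), and the highest red share, 20.0%, is that of 3 of 15 Hedgehog genes.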

How the data were processed

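Positions in bp on mm9, the starts and ends of regions, were deposited by the authors as 1 list for wild-type CPs. Trimming by the authors used fastq-mcf and alignment to mm9 used Bowtie, after which reads with a mapping quality of 30 or more were kept. Bins with more reads than input DNA, by a P-value threshold, made the regions. Versions of these tools, the bin length and how the 2 ChIP libraries were combined are not given in the sources used here. A list without heights cannot separate wide binding from strong binding, and its edges depend on the threshold and on a grid of 20 bp.

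The 4791 rows named 3473 distinct regions, each counted once. In the paper that reported these data, the count of sites in CPs equals the number of rows. Its count of sites in cardiomyocytes equals the number of distinct regions. Why the counts match in this way was not tested, so that the list is taken as one of CPs from its label only. Starts were read as counted from 0 and are printed counted from 1. Regions were compared with the mm9 sequence and GENCODE release M1 in Python 3.11.15. Sequence was read with pysam 0.24.0 and samtools 1.23.1, words were counted with numba 0.67.0, tables were handled with pandas 2.3.3 and numpy 2.4.6, tests came from scipy 1.17.1 and plots from matplotlib 3.10.9. Fisher's exact tests, two-sided, compared broad with narrower regions on 7 measures taken from midpoints and fixed windows, which hold flanking sequence where a region is narrower than the window, with Benjamini-Hochberg adjustment over the 7 tests and a threshold of 0.05; the code was tested on simulated counts. Classes put promoters (1 kb either side of a TSS) before exons and exons before introns. CpG-rich stretches were joined from windows of 200 bp in steps of 10 bp, within 8 kb of the midpoint. Words of 75 bp were counted on both strands of mm9.

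Members and lists were chosen with earlier results of these data known. The text names genes at the 25 widest regions, at or nearest to the 10 widest regions away from promoters, up to the 6 widest with a broad region on each list, and some at the threshold, and those in a count of 5 or fewer could be named. All other genes are to be read as picked after their values were seen, also where this is not said beside them. Alternatives were other width limits (800 and 1500 bp), each row counted, narrower regions of 500 bp or more only, removal of repeated sequence, other windows, words, distances and promoter definitions, protein-coding TSSs only, and 4 added after the data had been seen.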

Additional observations from a re-analysis of the deposited data

How the results depend on the processing

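Values here are differences in percentage points, broad minus narrower, each with the adjusted p of the exact test. Of 59 alternatives over 9 results, 33 left the direction and the side of the threshold as they were (for a count, a value within 1.5 times). With broad regions taken from 1500 bp (103 regions; exact tests), centre at a promoter gave 8.68 (p = 0.0958), centre downstream of the TSS -9.32 (0.124), AGATAA -2.59 (0.575), CpG-rich centre among promoter regions -0.171 (0.814) and divergent TSS pairs -2.43 (0.741). From 800 bp, AGATAA gave -1.94 (0.135) and another region within 10 kb -0.274 (0.852). Against narrower regions of 500 bp or more, centre at a promoter gave -1.50 (0.714), CpG-rich centre -5.84 (0.0343), centre downstream -5.05 (0.211) and AGATAA -0.553 (0.814). With each row counted, CpG-rich centre gave 4.82, and the number of broad regions was 1132. The p is left out because repeats of 1 region are not separate units. Such settings also enter the 33 alternatives above. Promoters within 500 bp gave -2.62 (0.452). CpG-rich centre gave -1.39 (0.666) in the central 200 bp and -0.0923 (1.00) with GC of 55% and a ratio of 0.65. Protein-coding TSSs gave -0.218 (1.00) for divergent pairs. The word TGATAAG gave -1.25 (0.146). AGATAA in whole regions gave 12.7, printed without its p because a longer region holds more words and width chose the regions. Neighbours within 50 kb gave -2.88 (0.298). Of the settings chosen after seeing the data, AGATAA with the centre at a promoter gave 1.10 (0.332) and away from promoters, against narrower regions of 500 bp or more, -5.04 (0.492), the window at the TSS gave 0.182 (1.00) for CpG-rich promoter regions, and neighbours without chromosome X gave -0.354 (0.903). Genes with a broad region at a TSS numbered 581 from 800 bp and 97 from 1500 bp. Causes were not tested. Removal of soft-masked sequence was not run. No paired analysis was possible because regions carry no values per library. Depth, which is unknown, limits which regions were called and how wide.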

Other observations

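Broad regions stood on repeated rows more often than narrower ones. Of the 377, 324 (85.9%) stood on more than 1 row, against 469 of 3096 narrower regions (15.1%) and 48.1% of the narrower regions of 500 bp or more, and the broad regions took 1132 of the 4791 rows (23.6%). No narrower region was on more than 4 rows. Broad regions were on 1 row in 53 cases, on 2 in 168, on 3 in 37, on 4 in 80, on 6 in 24, on 8 in 6 and on 9 in 4, and single or paired regions were on 12, 16 or 20 rows. Those on 16 rows were at Zfp423 and Arid1a, and those on 20 rows were the widest region and that at Brd2. Width and rows both come from the same list, and how repeats arose was not tested.

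Words of 75 bp found elsewhere in mm9 occurred in 29 of the 377 broad regions (7.69%) and in 47 of 3096 narrower ones (1.52%); a wider region holds more words, so the shares were not tested. In 1 broad region they were the majority (68.5%), a region of 1280 bp on chromosome 8 that overlapped 2610005L07Rik and was 8.82 kb from the TSS of Gm15319. At Zmym2 the share was 41.6% and at Zbtb10 16.9%.

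Chromosome X carried 4 broad regions among its 16 regions, and chromosome 11, with the most, carried 35 of 333. On X, 3 of the 4 lay in Mid1 between 166424946 and 166436165, with widths of 2080, 1340 and 1260 bp, and 11.7%, 13.1% and 3.88% of their words of 75 bp occurred elsewhere. The fourth, of 1120 bp, had Efnb1 as its nearest protein-coding gene. On chromosome 11, the pair of CpG-poor regions at Sfi1 had midpoints 2.81 kb apart.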
